A study of Mus musculus with 80 samples.

Results

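The transcripts of 38 genes of the autophagy machinery were followed through the day and through a fast in mouse liver. They were selected by name, as the rows of the count table whose symbol is on a list of autophagy genes, from 78275 listed genes. All 38 were present and all 38 passed the filter on low counts. The 80 livers came from C57BL/6J mice, an inbred strain labelled C57BL/6 for genotype, of both sexes and 8 to 12 weeks old when bought. All were kept on chow in a light–dark cycle and then moved to constant darkness, and none carried a transgene or a deletion according to the labels. Control mice ate ad libitum throughout, whereas food was taken from the fasted mice at circadian time (CT) 10. Livers were taken at 10 times, every 4 h from CT8 to CT44, from 2 males and 2 females of each treatment, so that each treatment had 40 libraries and each treatment and time had 4. At CT8 the mice labelled fasted still had food. From CT12 to CT44 they had been without it for 2 to 34 h. The questions were which steps of the autophagy machinery differed between fasted and control livers, whether these differences depended on the hour, on the length of the fast or on sex, and how the same genes cycled in control livers.

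Autophagy encloses part of the cytoplasm in a newly made membrane sac, the autophagosome, and delivers it to the lysosome for breakdown. A kinase complex built on ULK1 or ULK2 starts the process, a lipid kinase complex built on VPS34 and Beclin 1 marks the membrane with phosphatidylinositol 3-phosphate, and ATG2 and WIPI proteins supply lipid and read that mark. Enzymes related to those of the ubiquitin system then attach small proteins of the ATG8 family (the LC3 and GABARAP proteins) to the membrane, where cargo receptors hold the material to be degraded. In liver the pathway is known for recycling protein, lipid droplets and mitochondria when food is short, and for its response to the nutrient-sensing kinases mTORC1 and AMPK.

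Levels are given in CPM, a gene's counts scaled to the total of its library after TMM adjustment. Total counts per library ranged from 25534901 to 59927771, with a median of 42303883. For 40 libraries the sex in the title was not the sex in the detailed labels, and the treatment differed likewise for 40. The titles were followed. The relation of Xist to the Y-linked Ddx3y fitted the sex in the title in 80 of 80 libraries. The liver label was checked against 5 hepatocyte genes, all of which were measured, and their summed level lay between 59585 and 113034 CPM in control and between 64008 and 115765 CPM in fasted libraries from CT12 on. Genes of ribosomal RNA took 31.3% of the counts in control CT8 female 2, against at most 4.88% in any other library. Among the autophagy genes, fasted CT40 female 2 stood apart from its group for 6 genes, always as the highest, and fasted CT44 female 1 and fasted CT36 female 2 for 4 genes each. Where leaving out one of these libraries ended a call described in the text, the value without it is given, and "both libraries" below means the CT40 and the CT44 one. Nothing in the labels says that animals were pooled, so each library is taken as 1 mouse.

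Promoter windows of 300 bases, from 250 bases before to 50 bases after the start of transcription, were found for 31 of the 38 genes in RefSeq's table for GRCm38.p6, the genome build of that table and not that of the counts. The E-box CACGTG, the core motif bound by CLOCK and BMAL1 as well as by TFEB and TFE3, was present on either strand in 5 of the 31 (Atg3, Atg5, Atg7, Atg14 and Bnip3), or in 13.5% of 37 windows against 7.15% of all 32851 windows. Its extension TCACGTGA, which overlaps the E-box by construction, was found in Atg3 alone, against 0.974% of all windows. The forkhead motif TGTTTAC was found in none of the members and in 3.65% of all windows. The cAMP response element TGACGTCA was found in Atg5 alone, against 1.79%, and AGGTCANAGGTCA, a repeat of AGGTCA with any base between, in no member and in 0.0396%. A match is a string of letters and not a known site, and no match says only that the letters are not in this window. The Atg7 window (chr6:114670846-114671145, plus strand) lies inside the gene, which begins at chr6:114643097 in GENCODE M21. That of Atg14, on the minus strand, also lies inside its gene, which begins at chr14:47570649. The matches in Atg7 and Atg14 thus belong to starts within the gene. The windows of the 3 genes with the largest control cycle are printed because they show what the E-box count rests on: 1 of the 3 holds the motif. Those of Atg14 and Atg3 are printed because the motif lies at the start used for the window in the first and occurs in both lengths in the second. Capitals mark the E-box or its extension.
Ulk1, chr5:110810032-110810331, minus strand: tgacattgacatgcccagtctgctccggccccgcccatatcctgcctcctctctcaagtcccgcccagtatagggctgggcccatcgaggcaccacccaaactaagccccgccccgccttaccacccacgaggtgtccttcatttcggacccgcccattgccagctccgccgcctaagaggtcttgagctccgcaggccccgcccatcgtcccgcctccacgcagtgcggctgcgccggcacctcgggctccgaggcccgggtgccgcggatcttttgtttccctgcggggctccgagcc
Bnip3, chr7:138909457-138909756, minus strand: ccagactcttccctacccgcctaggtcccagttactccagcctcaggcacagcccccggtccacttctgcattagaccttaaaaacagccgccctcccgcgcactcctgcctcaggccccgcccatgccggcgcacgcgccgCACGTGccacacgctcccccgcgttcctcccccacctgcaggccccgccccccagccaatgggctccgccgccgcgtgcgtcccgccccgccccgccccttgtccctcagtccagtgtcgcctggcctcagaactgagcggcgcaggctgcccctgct
Gabarapl1, chr6:129532942-129533241, plus strand: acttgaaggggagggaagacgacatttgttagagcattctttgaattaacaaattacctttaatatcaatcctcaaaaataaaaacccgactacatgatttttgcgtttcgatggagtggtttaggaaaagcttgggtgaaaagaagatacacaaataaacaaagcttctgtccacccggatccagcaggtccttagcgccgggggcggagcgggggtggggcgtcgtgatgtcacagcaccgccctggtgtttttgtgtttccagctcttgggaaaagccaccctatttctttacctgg
Atg14, chr14:47568385-47568684, minus strand: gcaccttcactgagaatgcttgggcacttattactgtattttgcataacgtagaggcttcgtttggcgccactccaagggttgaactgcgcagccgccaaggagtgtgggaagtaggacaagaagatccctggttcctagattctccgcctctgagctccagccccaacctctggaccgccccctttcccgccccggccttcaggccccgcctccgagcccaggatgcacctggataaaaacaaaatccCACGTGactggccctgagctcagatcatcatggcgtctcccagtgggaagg
Atg3, chr16:45158579-45158878, plus strand: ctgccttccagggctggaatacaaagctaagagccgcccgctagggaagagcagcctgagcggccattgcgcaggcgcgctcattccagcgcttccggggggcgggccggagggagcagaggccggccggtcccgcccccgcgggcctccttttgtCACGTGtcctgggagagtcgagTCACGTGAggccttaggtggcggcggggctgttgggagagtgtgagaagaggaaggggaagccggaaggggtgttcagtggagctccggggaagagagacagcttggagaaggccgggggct
The E-box began 108 bases before the start used for the window in Bnip3, 1 base before it in Atg14, and 94 and 71 bases before it in Atg3.

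Fasting was compared with feeding as the mean difference over CT12 to CT44, with sexes and times weighted equally. Of the 38 genes, 23 (60.5%) rose and 7 (18.4%) fell at an adjusted p under 0.05 in edgeR's quasi-likelihood test. Across all 21187 genes tested, 29.5% rose and 32.9% fell. The median log2 difference, fasted over control, was 0.19 over the 38 autophagy genes and -0.02 over all genes. At CT8, before food was removed, these medians were already 0.096 and 0.006, and the fasting effect was not corrected for them. The other 8 genes did not pass the test. In bulk liver, fewer cells of a type and less RNA per cell cannot be told apart.

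**Figure D1:**
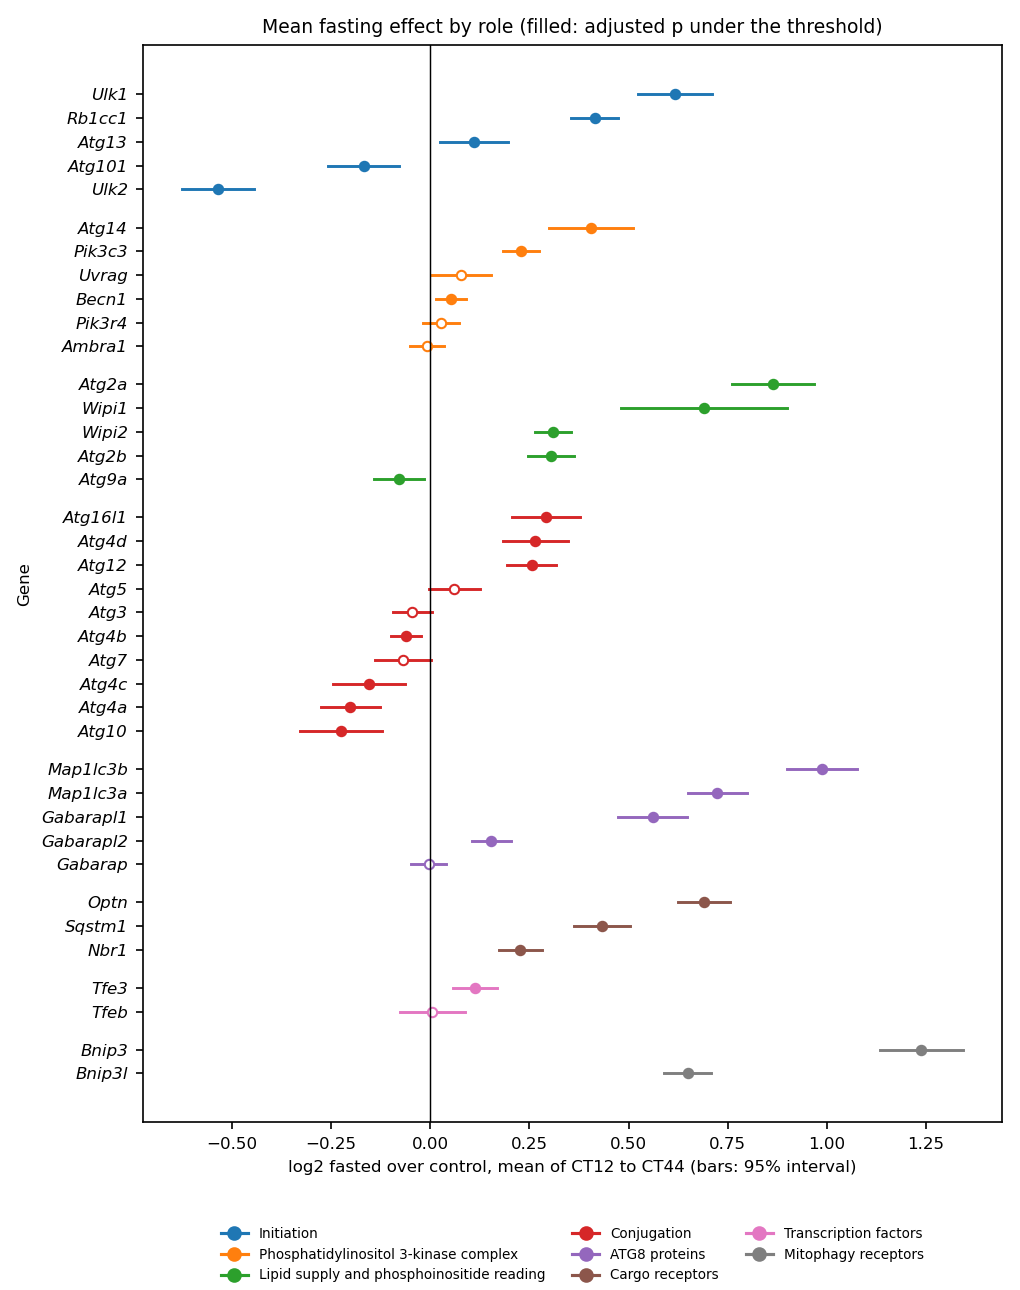
Mean fasting effect of each autophagy gene, as log2 fasted over control from CT12 to CT44 on the horizontal axis, with genes grouped and coloured by role. Points are the fitted means of 36 fasted against 36 control libraries, bars are 95% intervals, and filled points passed the test. Bnip3 (1.24) and Map1lc3b (0.99) lie farthest to the right and Ulk2 (-0.54) farthest to the left.

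The 6 largest rises were those of Bnip3, Map1lc3b, Atg2a, Map1lc3a, Wipi1 and Optn. Bnip3 and Bnip3l encode outer-membrane proteins that tie mitochondria to LC3, and both rose. In control libraries from CT12 on, Bnip3 had its lowest value at 71.1, its median at 130.1 and its highest at 224 CPM; in fasted libraries these were 193, 299 and 664 CPM. The upper control libraries reached into the lower fasted ones, but the fasted median was above every control library. The log2 difference of Bnip3 was 1.24 (SE 0.05, 95% interval 1.13 to 1.34), a 2.36-fold higher level, with an adjusted p of 2.75e-24, and it passed the test at 8 of the 9 times. It was widest at CT20, when the 4 control livers measured 89.7, 100.1, 71.7 and 107 CPM (males first) and the 4 fasted livers 315, 352, 413 and 357 CPM. No fasted liver came near a control liver there. Bnip3l (NIX) rose by a log2 difference of 0.65 (SE 0.03, adjusted p 3.99e-23), from a mean of 60.8 ± 7.96 to 96.6 ± 20.4 CPM (SD, n = 36 each).

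Of the 5 ATG8 genes, 4 rose and Gabarap alone did not pass the test. Map1lc3b encodes LC3B, the ATG8 protein most used to count autophagosomes. Its lowest, median and highest values were 49.9, 73.8 and 90.8 CPM in control and 101, 141 and 314 CPM in fasted libraries from CT12 to CT44. Map1lc3b was the only member for which all 36 fasted libraries lay above all 36 control libraries. Its log2 difference was 0.99 (SE 0.05, adjusted p 1.85e-23), and the gene passed the test at all 9 times after food removal. At CT40, the time of its widest difference, control livers gave 76.6, 73.0, 56.0 and 55.4 CPM and fasted livers 158, 149.9, 142 and 314 CPM. The last of these, fasted CT40 female 2, stood far above the other three, and without it the difference at CT40 was 1.21 in place of 1.54.

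Map1lc3a, which encodes LC3A, had 16.9, 25.6 and 35.5 CPM as its lowest, median and highest control values and 21.3, 43.5 and 53.7 CPM as its fasted values. The fasted median exceeded every control library. The log2 difference was 0.72 (SE 0.04, adjusted p 2.38e-21). At CT36 the control livers measured 27.3, 24.1, 19.0 and 21.2 CPM and the fasted livers 51.8, 53.7, 47.7 and 37.0 CPM, without overlap. Gabarapl1 rose by 0.56 (SE 0.04, adjusted p 2.43e-15) and Gabarapl2 by 0.15 (SE 0.03, adjusted p 7.98e-07). Gabarap, from 149.9 ± 9.25 CPM in control to 149.6 ± 12.0 CPM in fasted livers, differed by 0.00 with a 95% interval of -0.05 to 0.04. Per kilobase of exon, a scale on which genes can be set side by side, control levels in this family ran from 103 CPM per kilobase for Gabarapl1 and 81.3 for Gabarap to 21.8 for Map1lc3a, 11.7 for Gabarapl2 and 9.72 for Map1lc3b. Map1lc3b and Map1lc3a, with the largest differences of the family, thus stood below Gabarapl1 and Gabarap in control level per kilobase. The exon length of Map1lc3b in the annotation used is 7517 bases, the longest of the family, and weighs on its place in that order.

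All 3 cargo receptors rose. Optn encodes optineurin, which recognises ubiquitin on damaged mitochondria and on bacteria. Its lowest, median and highest levels were 56.9, 87.5 and 121 CPM in control and 96.1, 144 and 179 CPM in fasted libraries, so that the fasted median exceeded every control value. The log2 difference of Optn was 0.69 (SE 0.03, adjusted p 1.64e-22). At CT20 the control livers stood at 71.8, 81.7, 60.7 and 78.6 CPM and the fasted livers at 153, 161, 175 and 162 CPM, with a gap between the groups wider than either. Sqstm1 (p62), which binds ubiquitinated cargo and is itself consumed by autophagy, rose by 0.43 (SE 0.04, adjusted p 1.31e-14) from 363 ± 47.2 to 496 ± 108 CPM. Nbr1, a related receptor, rose by 0.23 (SE 0.03, adjusted p 1.24e-09). Sqstm1 was the most abundant of the 38 per kilobase in control liver, at 108 ± 14.1 CPM per kilobase.

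Of the 5 genes that supply lipid and read phosphoinositides, 4 rose and 1 fell. Atg2a encodes a lipid transfer protein that feeds the growing membrane. Its lowest, median and highest values were 41.2, 65.3 and 108 CPM in control and 79.6, 114 and 375 CPM in fasted libraries. The highest fasted value was that of fasted CT40 female 2, and the fasted median still exceeded every control library. The log2 difference of Atg2a was 0.86 (SE 0.05, adjusted p 3.63e-19), and 0.79 without both libraries that stood apart. At CT40 control livers had 61.0, 65.2, 41.2 and 46.9 CPM and fasted livers 95.6, 102, 152 and 375 CPM. The groups did not overlap, but the difference fell from 1.61 to 1.23 when the highest library was left out.

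Wipi1 encodes a reader of phosphatidylinositol 3-phosphate. In control libraries its lowest, median and highest values were 8.23, 21.1 and 32.5 CPM, and in fasted libraries 13.5, 29.0 and 128 CPM. Most of the control range lay within the fasted range, which reached far above it. The log2 difference was 0.69 (SE 0.11, adjusted p 2.65e-07), the least precise of the large rises, and 0.58 without both libraries that stood apart. At CT20 the control livers measured 13.1, 22.4, 8.23 and 18.3 CPM and the fasted livers 28.8, 45.4, 45.9 and 41.2 CPM, without overlap. At CT40 the call rested on fasted CT40 female 2: the difference was 1.27 (adjusted p 0.00149) with it and 0.68 (adjusted p 0.112) without it. Wipi2 and Atg2b, the second members of these families, rose by 0.31 and 0.30. Atg9a, a scramblase that moves lipid between membrane leaflets, fell by 0.08 on the log2 scale (SE 0.03, adjusted p 0.0300). Across the alternative settings the call for Atg9a was kept in 16, lost in 12 and its sign changed in 1. It was lost with DESeq2 size factors (adjusted p 0.0549), with DESeq2 (0.0538) and with no filter (0.0547). In females alone the difference was 0.02. Without fasted CT36 female 2 its difference was -0.07 and the call was lost (adjusted p 0.0503).

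The initiation complex divided. Ulk1, the kinase that starts autophagy, rose by 0.62 (SE 0.05, adjusted p 1.72e-15), while Ulk2, its paralogue, showed the largest fall of the 38. Ulk2 had 67.5, 97.8 and 125 CPM as lowest, median and highest control values and 27.0, 66.3 and 135 CPM as fasted values. The highest fasted library exceeded every control library, although the fasted median was below every control value. Its log2 difference was -0.54 (SE 0.05, adjusted p 5.90e-14), a level of 0.690 times control. At CT44, the time of the largest fitted difference, control livers stood at 109.8, 125, 103 and 90.9 CPM and fasted livers at 77.1, 66.3, 34.2 and 61.9 CPM. The difference at CT44 was -0.86, as at CT36, and -0.68 without fasted CT44 female 1, the lowest of the 4. Rb1cc1 (FIP200), the scaffold of the complex, rose by 0.41 (SE 0.03, adjusted p 2.76e-16) and Atg13, the adaptor, by 0.11 (SE 0.04, adjusted p 0.0270). The call for Atg13 was lost without both libraries that stood apart (0.08, adjusted p 0.106). Across the alternative settings it was kept in 16 and lost in 12, and the sign of Atg13 changed in 1. That was males alone, with a difference of -0.01 (adjusted p 0.875).

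Atg101, the partner that stabilises ATG13, fell. Its lowest, median and highest levels were 13.6, 20.1 and 29.4 CPM in control and 11.2, 18.03 and 25.6 CPM in fasted libraries, so that the ranges overlapped widely. The log2 difference was -0.17 (SE 0.05, adjusted p 0.00141). At CT44, where the difference was largest, control livers had 21.6, 26.9, 23.3 and 21.8 CPM and fasted livers 17.7, 18.3, 13.1 and 17.7 CPM, and the groups were apart. Without the lowest of these, fasted CT44 female 1, the difference was -0.39 in place of -0.49 and the call was lost (adjusted p 0.0512).

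Of the 10 conjugation enzymes, 3 rose, 4 fell and 3 did not pass the test, shares near those of all genes (29.5% and 32.9%). Atg16l1, Atg4d and Atg12 rose by 0.29, 0.26 and 0.26 (adjusted p 1.41e-07, 3.79e-07 and 1.05e-09). ATG12 is the ubiquitin-like protein that is joined to ATG5, and ATG16L1 carries the joined pair to the membrane. The fall was largest in Atg10, the enzyme that joins ATG12 to ATG5, one of the least abundant members. Its lowest, median and highest values were 2.09, 3.15 and 5.47 CPM in control and 1.81, 2.78 and 5.31 CPM in fasted libraries, which overlapped almost entirely. Its log2 difference was -0.23 (SE 0.05, adjusted p 2.31e-04), and -0.16 in males alone, where the call was lost (adjusted p 0.0595). At CT28 control livers measured 3.86, 3.74, 3.94 and 3.97 CPM and fasted livers 3.01, 2.41, 2.47 and 2.74 CPM, without overlap.

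Of the 4 ATG4 proteases, which trim ATG8 proteins and release them from the membrane, 3 fell and 1 rose. Atg4a had a lowest, median and highest level of 7.13, 9.86 and 12.5 CPM in control and of 5.81, 8.51 and 11.0 CPM in fasted libraries. Its log2 difference was -0.20 (SE 0.04, adjusted p 9.88e-06). At CT20 control livers gave 9.72, 11.5, 8.73 and 9.62 CPM and fasted livers 9.40, 7.61, 5.81 and 6.53 CPM, and fasted male 1 lay within the control range. Atg4c differed by -0.15 (adjusted p 0.00345) and Atg4b by -0.06 (adjusted p 0.00542). The call for Atg4c was lost without either male replicate (adjusted p 0.0651 and 0.0808) and in males alone (-0.07, adjusted p 0.102), and that for Atg4b with no filter (adjusted p 0.219), in females alone (adjusted p 0.203) and without CT40 (adjusted p 0.0812). Atg3, Atg5 and Atg7, which encode the E2-like enzyme for ATG8, the acceptor of ATG12 and the shared E1-like enzyme, differed by -0.05, 0.06 and -0.07, with 95% intervals of -0.09 to 0.00, 0.00 to 0.13 and -0.14 to 0.00.

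In the lipid kinase complex 3 genes rose and 3 did not pass the test. Atg14, the subunit that directs the kinase to autophagy, rose by 0.40 (SE 0.05, adjusted p 9.09e-09), and Pik3c3 (VPS34), the kinase itself, by 0.23 (SE 0.02, adjusted p 6.36e-12). Becn1 (Beclin 1) differed by 0.05 (SE 0.02, adjusted p 0.0159). Its call was lost with no filter (adjusted p 0.592), without male replicate 1 (0.421) or 2 (0.0755) and with no sex in the model (0.112), and in males alone the difference was -0.01. Uvrag, which directs the same kinase to endosomes, Pik3r4, its regulatory subunit, and Ambra1, a regulator of Beclin 1 and ULK1, differed by 0.08, 0.03 and -0.01. Uvrag (adjusted p 0.0708) gained a call in 9 alternative settings and stayed without one in 20. Among the former were DESeq2 (adjusted p 0.0446) and upper quartile scaling (adjusted p 0.0360). Of the transcription factors that act on autophagy and lysosome genes, Tfe3 rose by 0.11 (SE 0.03, adjusted p 6.62e-04), whereas Tfeb differed by 0.01 with a 95% interval of -0.08 to 0.09. These are transcript levels, and the activity of these factors and kinases, which is set by phosphorylation, was not measured.

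In GENCODE M21, on GRCm38, Bnip3 (ENSMUSG00000078566.9) spans chr7:138890836-138909519 on the minus strand, Map1lc3b (ENSMUSG00000031812.17) spans chr8:121590361-121598760 on the plus strand, Atg2a (ENSMUSG00000024773.16) spans chr19:6241668-6262335 on the plus strand and Ulk2 (ENSMUSG00000004798.15) spans chr11:61775649-61855073 on the minus strand. Some of these genes share exon sequence with a neighbour on the opposite strand in the same annotation. The library kit kept strand, but whether the counting used it is not given in the sources used here, so reads from these stretches could be assigned to either gene. The neighbour with the most counts relative to the member was Ankzf1 for Atg9a (57.3% of its counts, over 46 shared exon bases), followed by Zcchc14 for Map1lc3b (48.1%, 58 bases), Kri1 for Atg4d (45.6%, 1405 bases) and Gskip for Atg2b (13.7%, 383 bases). For the others with such a neighbour the share was at most 3.56%.

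The effect of fasting depended on the hour. At CT8, before food was removed, 0 of the 38 genes were called, against 0.118% of all genes higher and 1.21% lower. At an unadjusted p under 0.05 edgeR counted 5 (Map1lc3a, Atg7, Atg101, Gabarap and Ambra1), and at the adjusted threshold limma-voom called 0 and DESeq2 1. At CT12, 2 h into the fast, Map1lc3b (0.55) and Gabarapl1 (0.48) had risen and none had fallen, against 0.920% and 0.684% of all genes. The count of risen genes was 18 at CT16 (11.5% of all genes), 20 at CT20 (17.5%) and 17 at CT24 (12.2%). It was then 8 at CT28 (9.88%) and 6 at CT32 (8.40%), and again 13 at CT36 (12.8%), 21 at CT40 (18.7%) and 20 at CT44 (18.7%). Fallen members numbered 0 at CT16 (11.9% of all genes), 2 at CT20 (19.1%), 1 at CT24 (11.9%), 4 at CT28 (11.1%), 2 at CT32 (9.30%), 1 at CT36 (14.0%), 4 at CT40 (21.2%) and 3 at CT44 (20.7%). Without fasted CT40 female 2 the counts at CT40 were 17 risen and 2 fallen: Atg13, Atg14, Wipi1, Atg16l1, Atg4a and Atg4c lost their calls. Without fasted CT44 female 1 those at CT44 were 16 risen and 3 fallen: Wipi1, Atg4d, Atg12, Atg16l1 and Atg101 lost theirs, and Atg9a gained one. CT28 and CT32 thus had the fewest risen members of the times from CT16 on. The shares of all genes that rose and that fell were likewise lowest at CT28 and CT32. Tested jointly over the 9 times, 30 members differed at some time, against 61.7% of all genes. No change from one time to the next was tested.

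**Figure D2:**
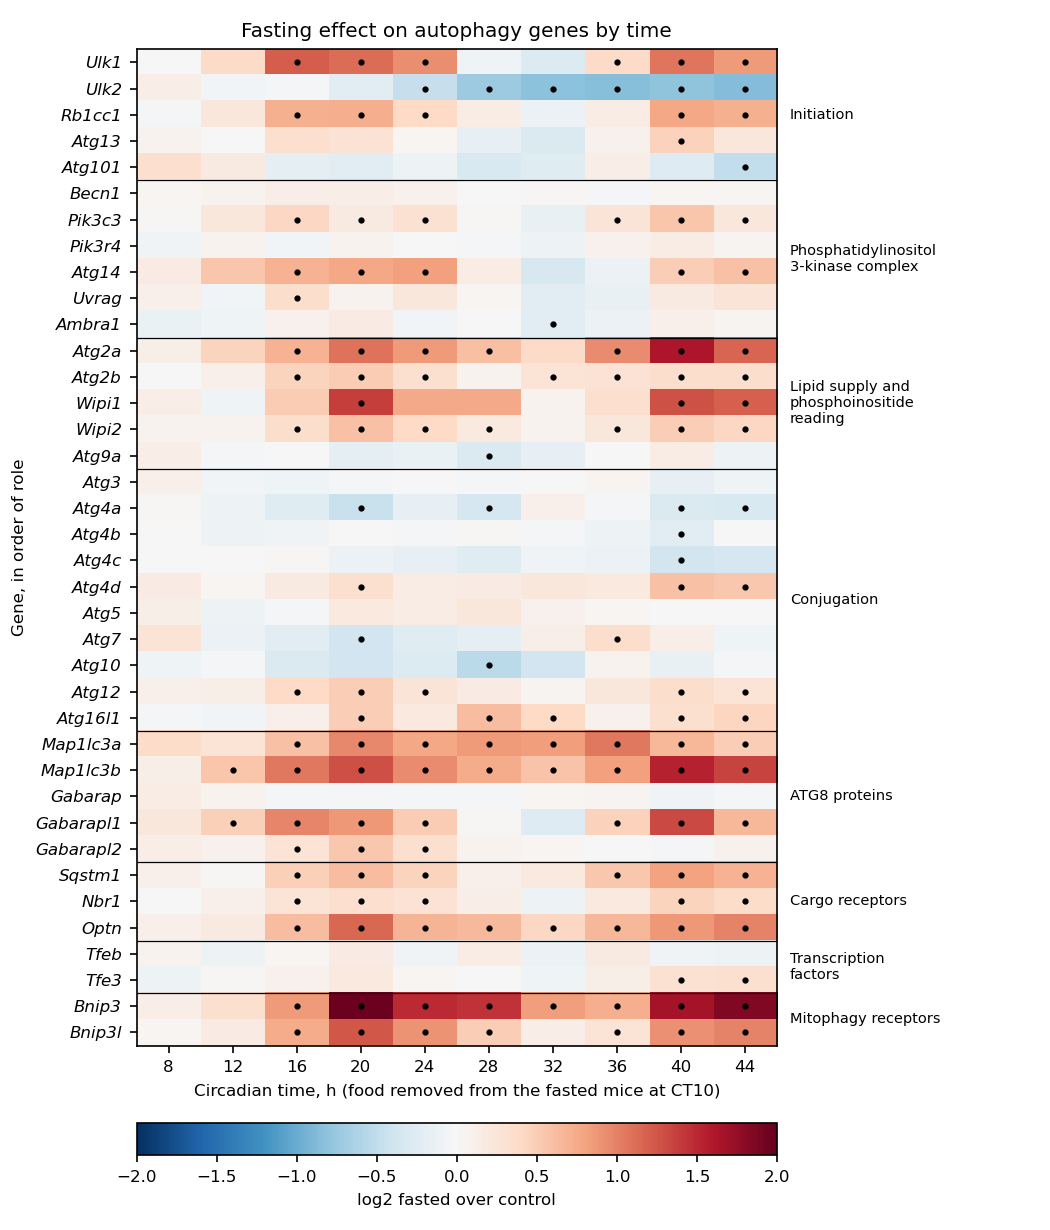
Fasting effect on each autophagy gene at each time, as log2 fasted over control (colour, from blue for lower to red for higher), with genes in order of role and circadian time in h along the horizontal axis. Dots mark effects that passed the test. The columns at CT28 and CT32 carry 12 and 8 dots, against 22 at CT20, 25 at CT40 and 23 at CT44, and CT8 carries none. Of all genes 9.88% rose and 11.1% fell at CT28, and 8.40% and 9.30% at CT32. These shares were 17.5% and 19.1% at CT20, 18.7% and 21.2% at CT40, and 18.7% and 20.7% at CT44.

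The pattern in time took 3 forms among the genes with large effects. Map1lc3b, Map1lc3a, Bnip3, Optn and Atg2a had positive differences at all 9 times. Ulk1, Gabarapl1, Rb1cc1 and Atg14 rose at CT16 and CT20, were called at neither CT28 nor CT32, and rose again at CT40 and CT44. For Atg14 the rise at CT40 rested on fasted CT40 female 2 (0.50, adjusted p 0.0122, with it and 0.23, adjusted p 0.322, without it). For Ulk1 the log2 differences at CT16, CT24, CT28, CT32 and CT40 were 1.20, 0.93, -0.09, -0.28 and 1.06. For Gabarapl1 those differences were 0.98, 0.51, 0.03, -0.26 and 1.31. For Ulk2 the difference was -0.06, -0.02 and -0.21 at CT12, CT16 and CT20, -0.46 at CT24, -0.73 at CT28, -0.82 at CT32, -0.86 at CT36, -0.81 at CT40 and -0.86 at CT44, and it was called from CT24 on.

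**Figure D3:**
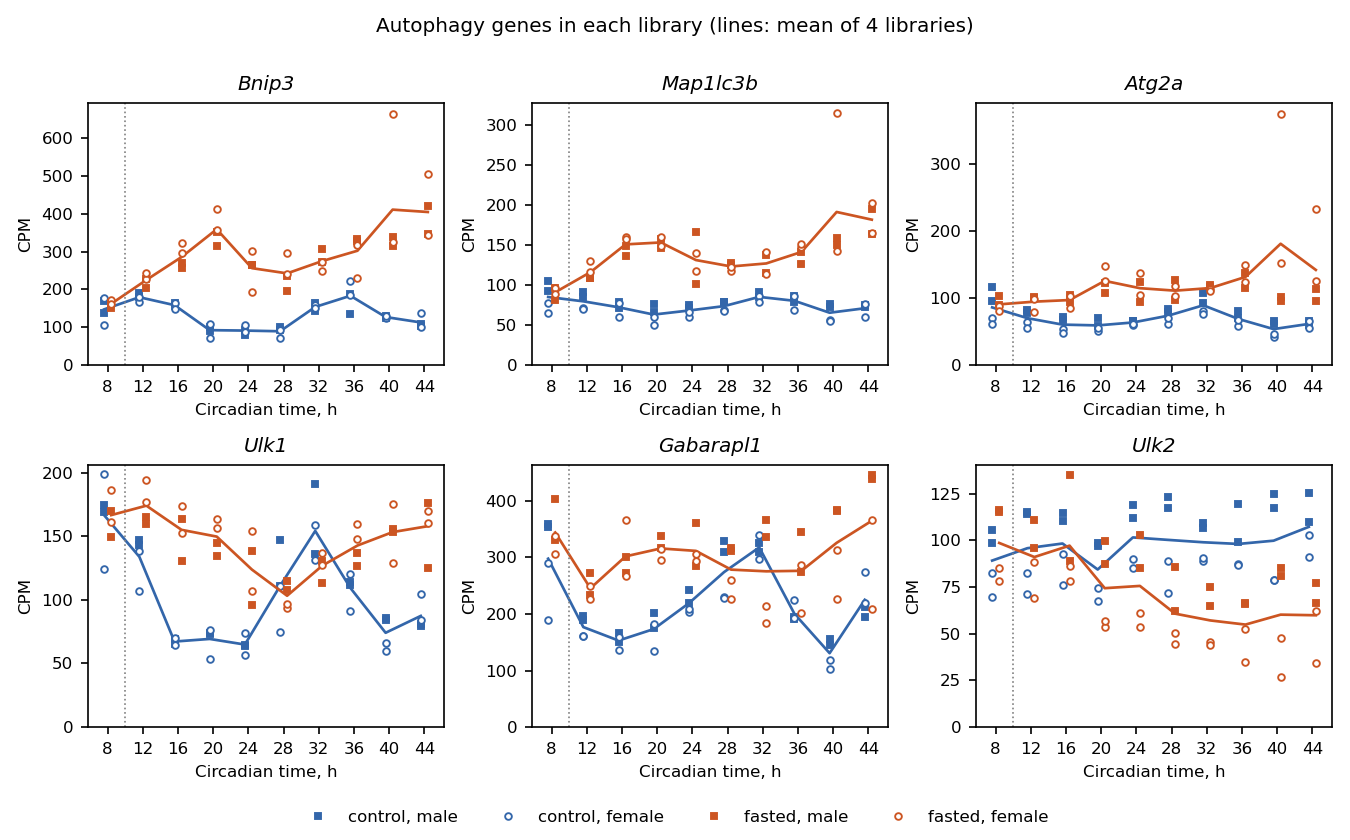
Levels of 6 autophagy genes in every library, in CPM on the vertical axis against circadian time in h, for control (blue) and fasted (orange) males (filled squares) and females (open circles). Lines join the means of 4 libraries, and the dotted line marks food removal at CT10. Map1lc3b separates after CT10, and fasted CT40 female 2 stands out in Bnip3, Map1lc3b and Atg2a. The control means of Ulk1 and Gabarapl1 are near the fasted means at CT28 and above them at CT32.

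The lengths of fast were compared at the same phase of the day, with the mean effect at CT36, CT40 and CT44 set against that at CT12, CT16 and CT20. The effect was higher late in the fast for 4 genes (10.5% of the 38), near the 9.91% of all genes. It was lower for 2 (5.26%), against 11.3% of all genes. Ulk2 changed most. In the early window its lowest, median and highest levels were 67.5, 94.8 and 115 CPM in control and 53.8, 87.6 and 135 CPM in fasted livers, 12 libraries each. In the late window these were 78.7, 101 and 125 CPM against 27.0, 63.9 and 85.0 CPM. The groups overlapped almost entirely early and only at their edge late, and the effect moved by -0.75 (SE 0.11, adjusted p 4.70e-06), from -0.10 to -0.84.

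Gabarapl2 had 21.8, 27.2 and 33.4 CPM in early control and 24.8, 32.2 and 43.8 CPM in early fasted livers. In the late window it had 22.3, 28.6 and 32.02 CPM in control and 21.8, 30.0 and 34.6 CPM in fasted livers, so that the early difference was no longer apparent. The effect moved by -0.27 (SE 0.06, adjusted p 0.00110). Atg7 went from lower to higher in the window means. It had 29.7, 34.7 and 41.6 CPM in early control and 21.3, 28.9 and 41.4 CPM in early fasted livers. Late it had 27.1, 36.1 and 44.4 CPM and 30.9, 37.99 and 51.8 CPM. The groups overlapped in both windows, and the effect moved by 0.38 (SE 0.09, adjusted p 0.00149), from -0.24 to 0.14. Within the late window the difference was 0.35 at CT36, 0.14 at CT40 (adjusted p 0.325) and -0.09 at CT44 (adjusted p 0.568). The mean of Atg7 over all times, near 0, covers these opposite signs. Atg2a, Sqstm1 and Bnip3 had effects larger by 0.49, 0.31 and 0.37 late in the fast (adjusted p 0.00412, 0.00885 and 0.0362). Without both libraries that stood apart the change was 0.28 for Atg2a (adjusted p 0.0198) and 0.23 for Bnip3 (adjusted p 0.179). In males alone the change for Atg2a was 0.15 (adjusted p 0.468) and that for Atg7 0.27 (adjusted p 0.168). In females alone it was 0.11 for Sqstm1 (adjusted p 0.711), 0.25 for Bnip3 (adjusted p 0.507) and -0.29 for Gabarapl2 (adjusted p 0.0580). Calls for length of fast numbered 3 without male replicate 1 at every time, 1 without male replicate 2 and 11 without female replicate 1. The differences themselves moved little without a male replicate: Atg2a was at 0.49 without either, Sqstm1 at 0.28 and 0.33, and Bnip3 at 0.35 and 0.38.

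The sexes were compared through the difference of their mean fasting effects, female minus male. It was positive and called for 7 genes (5.35% of all genes) and negative and called for 1 (7.02%). Atg2a differed most clearly. In males its lowest, median and highest values were 58.8, 70.1 and 108 CPM in control and 93.7, 106 and 138 CPM in fasted livers, 18 libraries each. In females these values were 41.2, 59.2 and 80.8 CPM against 79.6, 121 and 375 CPM. The control median was lower in females and the fasted median higher, and the effect was 0.58 in males and 1.15 in females (difference 0.57, SE 0.10, adjusted p 2.44e-04; 0.42 without both libraries that stood apart).

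Atg3 was the reverse case. Male livers had 62.1, 66.7 and 73.4 CPM in control and 62.0, 71.2 and 83.4 CPM when fasted, while female livers had 65.4, 78.2 and 90.6 CPM in control and 55.4, 69.2 and 78.9 CPM when fasted. The control median was higher in females than in males, and the fasted medians lay closer together. The effect was 0.09 in males and -0.18 in females (difference -0.26, SE 0.05, adjusted p 4.27e-04), which the mean over sexes does not show. Map1lc3a rose in both sexes. Its male values were 24.1, 31.6 and 35.5 CPM in control and 33.6, 48.3 and 53.7 CPM in fasted livers, and its female values 16.9, 20.1 and 26.1 CPM and 21.3, 40.7 and 47.7 CPM. Control females lay below most control males, and the effect was 0.58 in males and 0.87 in females (difference 0.29, SE 0.08, adjusted p 0.00802).

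The other genes called were Wipi1 (0.66), Map1lc3b (0.33), Bnip3l (0.22), Atg9a (0.20) and Becn1 (0.13), of which Wipi1 and Atg9a were lost without both libraries that stood apart (adjusted p 0.159 and 0.0976). Wipi1 was also lost without fasted CT36 female 2 (adjusted p 0.0560). All 8 calls were lost when male replicate 1 was left out at every time, and all but that of Atg2a when male replicate 2 was. The differences stayed of similar size: without male replicate 1 they were 0.56 for Atg2a, 0.33 for Map1lc3b, 0.30 for Map1lc3a, 0.27 for Bnip3l and -0.24 for Atg3, with adjusted p between 0.0713 and 0.215.

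**Figure D4:**
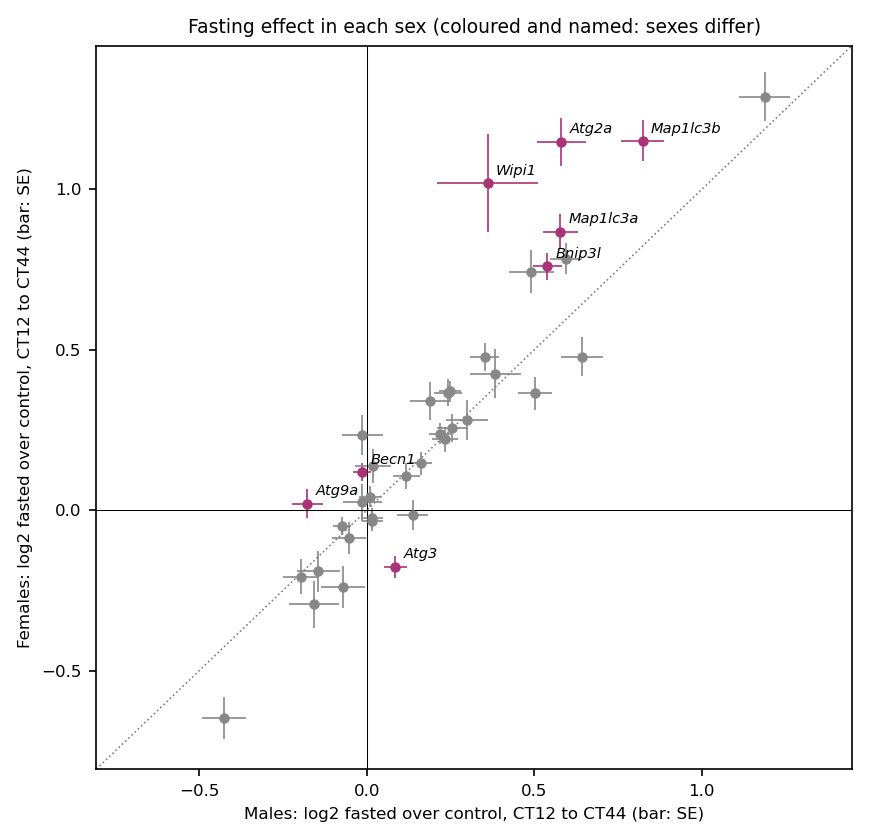
Fasting effect of each autophagy gene in females (vertical axis) against males (horizontal axis), as log2 fasted over control over CT12 to CT44, with bars of 1 SE. The dotted line marks equal effects, and the 8 coloured and named genes differ between the sexes. Atg2a and Wipi1 lie highest above the line and Atg3 below it.

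In control livers 26 of the 38 genes followed a 24 h cosine, against 41.8% of 20114 genes tested. All 6 genes of the lipid kinase complex and all 3 cargo receptors cycled, as did 4 of the 5 initiation genes, Ulk2 being the exception. The calls of Sqstm1, Nbr1, Optn and Rb1cc1 were lost in females alone (adjusted p 0.161, 0.147, 0.116 and 0.152). That of Becn1 was lost in each sex alone (0.0787 in males, 0.199 in females) and that of Ambra1 in males alone (0.141). Of the ATG8 genes only Map1lc3b and Gabarapl1 passed the test. The median peak-to-trough range, a log2 difference, was 0.33 over the 38 genes and 0.36 over all genes. The cycling members make up 68.4% of the 38.

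The widest cycle was that of Ulk1, with a fitted range of 1.15 and a peak at CT8.10 (adjusted p 2.25e-09). Control livers had 174, 169, 199 and 124 CPM at CT8 and 64.1, 64.8, 73.8 and 56.9 CPM at CT24, with no overlap. The lowest of the CT8 values, 124 CPM, came from the library with 31.3% ribosomal RNA counts. Bnip3 had a range of 1.09 and peaked later, at CT12.1 (adjusted p 1.98e-10). Its control values were 136, 188, 186 and 224 CPM at CT36 and 101, 92.7, 92.1 and 71.1 CPM at CT28. Gabarapl1 had a range of 1.01 and peaked at CT4.68 (adjusted p 3.59e-08), with 309, 326, 339 and 297 CPM at CT32 and 146, 156, 103 and 119 CPM at CT40. Only 8 h of the day lay between its highest and lowest control means. Atg101 had a range of 0.65 with a peak at CT0.424 (adjusted p 4.81e-06), and control livers measured 27.9, 29.4, 26.9 and 24.2 CPM at CT28 and 16.7, 15.0, 14.5 and 13.9 CPM at CT12. Within the initiation complex the peaks of Ulk1 and Rb1cc1 (CT8.13) fell together, and that of Atg101 lay in another part of the day.

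The cycles of fasted and control livers, fitted from CT12 on together with a straight-line trend for each treatment, differed for 24 of the 38 genes, against 23.2% of 20965 genes tested. Across the alternative settings the call for Atg2b was lost in 11 and kept in 9. That for Atg9a was lost in 8, those for Uvrag and Atg4a in 7 each. The calls for Wipi1, Atg12 and Tfe3 were lost in 6 each and that for Ambra1 in 5. Each of the other calls was lost in at most 3. Bnip3l had the smallest p (adjusted p 1.60e-11). At CT20 control livers had 61.0, 58.4, 46.2 and 53.6 CPM and fasted livers 127, 126, 136 and 127 CPM, whereas at CT32 the means were 67.8 ± 5.10 and 74.3 ± 3.42 CPM (SD, n = 4 each). The fitted range of Bnip3l was 0.36 in control livers with a peak at CT10.5 and 0.73 in fasted livers with a peak at CT19.8. The fitted cycle of the fasted livers was the wider one and peaked later. No test of a cycle was run in fasted livers alone. There the hour and the length of the fast advanced together, with only a straight line fitted beside the cycle. A fitted peak in fasted livers, for this and the following genes, need not be a daily one.

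Ulk1 behaved differently (adjusted p 1.68e-08). At CT16 control livers gave 65.2, 69.3, 70.0 and 64.6 CPM and fasted livers 163, 131, 174 and 153 CPM. Its range was 1.09 in control and 0.57 in fasted livers, with peaks at CT8.22 and CT15.8. Control means from CT12 on lay between 64.9 and 154 CPM, while fasted means stayed between 103 and 174 CPM: no fasted mean reached the control trough. Rb1cc1 (adjusted p 1.69e-08) had at CT40 40.8, 47.5, 36.1 and 37.4 CPM in control and 74.7, 69.3, 59.5 and 72.1 CPM in fasted livers, and its range was 0.31 with a peak at CT8.13 in control and 0.58 with a peak at CT18.3 in fasted livers. Bnip3 and Gabarapl1 had smaller ranges in fasted (0.59 and 0.38) than in control livers (1.07 and 0.98).

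**Figure D5:**
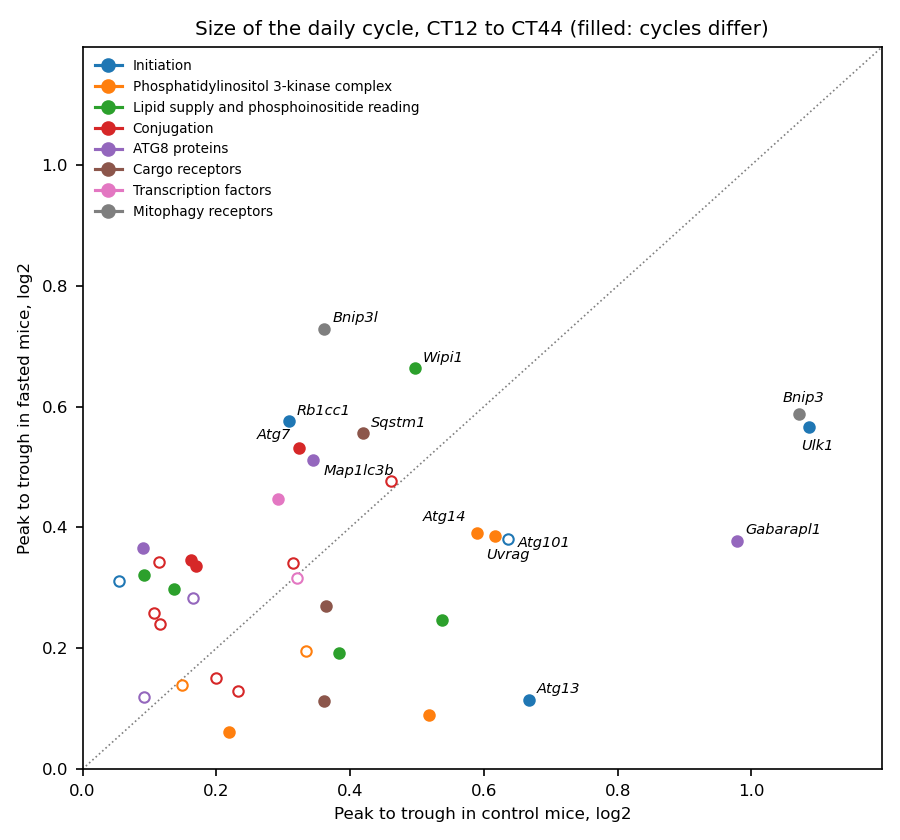
Fitted peak-to-trough range of each autophagy gene in fasted (vertical axis) against control livers (horizontal axis), both as log2 over CT12 to CT44, coloured by role. Filled points are the 24 genes whose cycles were called different in the main test, and the dotted line marks equal ranges. Ulk1, Bnip3 and Gabarapl1 lie far below the line and Bnip3l above it.

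The genes around the machinery were examined through lists written down by function. Of 29 further autophagy genes 16 rose and 6 fell (median log2 difference 0.20, against -0.02 over all genes, of which 29.5% rose and 32.9% fell). Retreg1, a receptor for autophagy of the endoplasmic reticulum, rose by 2.01 (47.8 ± 15.0 to 211 ± 166 CPM), Trp53inp1 by 1.11 and Depp1 by 0.99. Atg9b, the little-expressed paralogue of Atg9a, differed by -1.05 (0.292 ± 0.163 to 0.149 ± 0.0927 CPM), Tmem41b, a scramblase of the endoplasmic reticulum, by -0.58 and Wdr45b by -0.36. Of 29 lysosome genes 12 rose and 9 fell, with a median of 0.00, and the share that fell was near that of all genes. Npc1, which exports cholesterol, rose by 0.93, the protease Ctsl by 0.88 and the glycogen-degrading Gaa by 0.65, while Asah1, Gla and Ctsb, a ceramidase, a galactosidase and a protease, differed by -0.47, -0.41 and -0.38. Of 27 genes of nutrient sensing upstream of ULK1 and TFEB, 12 rose and 10 fell (median 0.09), the latter again near the share of all genes. Ddit4 (1.76) and Sesn2 (1.61), both inhibitors of mTORC1 signalling, and Foxo1 (0.76) rose most, and Sesn3 (-0.52), Mlst8 (-0.46) and Fnip2 (-0.43) fell most. Fasted libraries varied widely for Ddit4 (12.0 ± 5.38 to 60.0 ± 91.6 CPM) and Sesn2 (7.84 ± 2.38 to 25.2 ± 16.5 CPM). The genes of these lists were not tested without the libraries that stood apart.

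Markers of other liver cells were counted in the same test, in which 29.5% of all genes were higher and 32.9% lower in fasted livers. Of 6 Kupffer cell markers 5 were lower and 0 higher in fasted livers, with a summed level of 191 to 695 CPM in control and 120 to 369 CPM in fasted libraries. Of 5 stellate markers 3 were lower and 1 higher (179 to 349 against 149.7 to 325 CPM), and of 5 endothelial markers 2 were lower and 2 higher (213 to 335 against 204 to 334 CPM). Of 4 cholangiocyte markers 3 were lower (5.72 to 20.9 against 2.95 to 17.9 CPM) and of 3 lymphocyte markers 2 (9.56 to 47.2 against 7.35 to 25.6 CPM), with none higher in either list. Neither of the 2 red cell markers was called (38.04 to 109.5 against 26.1 to 126 CPM), and no marker of these lists was at 0 in every library. Of the 5 hepatocyte genes 4 were higher and 1 lower. The part of these shifts in the autophagy results was not tested.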

How the data were processed

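Polyadenylated RNA of 80 mouse livers was sequenced. The table used here is the one the authors deposited with read counts for every gene, in whole numbers and unscaled. The submitters' processing notes name Trimmomatic, HISAT2, DESeq2 and GRCm39. The counting program, its strand setting and the annotation are not given in the sources used here. A normalised table and a table of exon bins deposited by the authors were not used.

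Since the article, a review, gives no methods, the choice of tests is not the authors'. Libraries were scaled by TMM and genes filtered with filterByExpr in edgeR 4.0.16 under R 4.3.3. Fasting was tested with edgeR's quasi-likelihood test, over 80 libraries, with every combination of treatment, time and sex given its own mean. Control cycles used a cosine and a sine of 24 h and sex over 40 control libraries, and differences between cycles the 72 libraries from CT12 on, with a straight-line trend for each treatment. The p-values were adjusted over all genes tested by the Benjamini–Hochberg method and called under 0.05. The alternatives used limma 3.58.1 and DESeq2 1.42.0 as well. The scripts were tested on simulated data. The p-values measure the spread between libraries, each taken as 1 mouse. No 2 replicates agreed within counting error (lowest chi-square per degree of freedom 14.8).

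The members and lists were chosen with earlier results of these data known. Values by library are given for the 6 largest called rises and 4 largest called falls at the time of the widest effect, the 4 widest called control cycles, and the 3 smallest p among calls for sex, for length of fast and for the difference between cycles. Of each pathway list the 3 largest called rises and falls are named. Positions are those of GENCODE M21 or RefSeq on GRCm38. Protein sequences were not used here.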

Additional observations from a re-analysis of the deposited data

Results flagged for a closer look

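Among the 34 groups of 4 livers whose values are given one by one, 3 held a liver far from the others by Dixon's criterion, which chance meets in about 1 in 20 groups. Map1lc3b was at 314 CPM in fasted CT40 female 2, Atg101 at 13.1 CPM in fasted CT44 female 1 and Bnip3l at 136 CPM in fasted CT20 female 1. Over all 760 groups of the 38 genes, 44 (5.79%) held such a liver.

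The effect of fasting differed between females and males, in the test of that difference, for 8 genes. As female minus male log2 differences these were 0.66 for Wipi1, 0.57 for Atg2a, 0.33 for Map1lc3b, 0.29 for Map1lc3a, 0.22 for Bnip3l, 0.20 for Atg9a, 0.13 for Becn1 and -0.26 for Atg3. Positive calls made up 18.4% of the 38 genes, against 5.35% of all genes, and negative calls 2.63%, against 7.02%. The effect differed between the late and the early part of the fast for 6 genes, by -0.75 for Ulk2, 0.49 for Atg2a, 0.38 for Atg7, 0.37 for Bnip3, 0.31 for Sqstm1 and -0.27 for Gabarapl2 (late minus early, log2). Positive calls were 10.5% of the 38 genes, near the 9.91% of all genes, and negative calls 5.26%, against 11.3%.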

How the results depend on the processing

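Over all alternatives, 343 counts stayed within 1.5 times the reported one and 41 did not, and of the values for single genes 2324 kept direction and call, 185 lost the call, 18 gained one and 33 changed sign. Genes called at CT12 numbered 4 with upper quartile scaling, 5 with no filter, 4 with DESeq2, 0 in males alone, 0 in females alone and 0 at an adjusted p under 0.01. Those at CT8 numbered 1 with no filter and 1 with DESeq2. At an adjusted p under 0.01, 5 genes were called at CT32, 9 at CT36 and 3 for sex. Females alone gave 10 at CT24, 7 at CT28, 2 at CT32, 5 at CT36, 13 at CT44, 17 control cycles and 13 differing cycles, and males alone 13 differing cycles; these fits use fewer libraries. In the 250 bases before the start alone, the cAMP response element was found in 0 members. Leaving out one replicate number of one sex throughout gave 0 to 8 genes at CT8, 0 to 5 at CT12, 10 to 18 at CT16, 10 to 19 at CT24, 6 to 12 at CT28, 4 to 10 at CT32, 5 to 16 at CT36, 14 to 24 at CT44, 1 to 11 for length of fast and 0 to 10 for sex. The 8 genes at CT8 were called without female replicate 1, which leaves the control library with 31.3% ribosomal RNA as the only female. Chosen after seeing the data, the fits without single fasted libraries gave 4 genes at CT12 without CT40 female 2 and 5 without both libraries.

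The sign changed only for genes with main differences between -0.08 (Atg9a) and 0.11 (Atg13). Ambra1 was at 0.00021 with DESeq2 size factors, 0.0031 with upper quartile scaling, 0.017 in males alone, and 0.0048, 0.00031, 0.023 and 0.0087 without CT12, CT24, CT32 and CT36. Gabarap was at 0.0041 with DESeq2 size factors, 0.0077 with upper quartile scaling, 0.0035 with a stricter filter, 0.0042 with DESeq2, 0.016 in males alone, 0.0049, 0.00011, 0.0012 and 0.0069 without CT20, CT24, CT28 and CT40, and 0.0042, 0.0043 and 0.010 without the CT40 library, the CT44 library and both. Tfeb was at -0.0020 with no filter, -0.013 in males alone, and -0.0089, -0.0094 and -0.013 without CT20, CT28 and CT36. In males alone Atg13 was at -0.012, Becn1 at -0.014 and Atg3 at 0.086, and in females alone Atg9a at 0.022 and Atg5 at -0.013. Of these, Atg13, Becn1 and Atg9a were called in the main test. Atg3 was called in each sex alone with opposite signs, at 0.086 in males (adjusted p 0.0044) and -0.17 in females (adjusted p 0.0019). Leaving out one replicate number of one sex, Ambra1 lay between -0.016 and 0.0010, Gabarap between -0.011 and 0.0055 and Tfeb between -0.025 and 0.034.

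The replicate numbers did not pair the livers: over 20 pairs the correlation of deviations lay between -0.056 and 0.249, with 1 over 0.1. With the replicate block 30 genes were called for the mean effect (23 higher, 7 lower), 1 at CT12, 7 for length of fast and 8 for sex. Counts of 4 livers limit single times more than means over 36.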
